A study of Mus musculus with 3 samples.

Results

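Caveolins and cavins were examined as 6 genes of the deposited read-count table, taken by symbol from its 20162 genes: the caveolins Cav1, Cav2 and Cav3 and the cavins Ptrf (Cavin1 in newer annotation), Sdpr (Cavin2) and Prkcdbp (Cavin3). All 6 had 1 row each, and all 6 passed the filter on low counts that left 14478 genes for testing. The libraries came from C2C12 cells, an immortal mouse myoblast line that leaves the cell cycle and fuses into myotubes in low serum. Each infected population carried a lentivirus with an shRNA (a short hairpin RNA that silences a matching transcript) and was kept under puromycin. Growth medium held 10% serum, and all were harvested after 7 days in medium with 2% horse serum. The control library expressed a control shRNA, and the other 2 libraries each expressed a different Tead4 shRNA (A or B in the labels, hairpins A and B below). The libraries were made from infected populations, and the labels describe no clones and no repeat cultures of 1 shRNA. Polyadenylated RNA was sequenced without strand marking.

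Caveolae are flask-shaped pits of the plasma membrane. Caveolin proteins insert into the inner leaflet as oligomers, with Cav1 and Cav3 able to drive the formation of pits and Cav2 acting mainly in complexes with Cav1. Cavins are coat proteins that assemble on the caveolin-rich membrane, and Ptrf is needed for the pits to form. Cav3 is the caveolin of striated muscle and has a part in the making of T-tubules, while Cav1 and Cav2 are found in many cell types, myoblasts among them. Mutations of CAV3 cause muscle disease. The comparison asks which of these transcripts differ when Tead4, a TEAD transcription factor that binds DNA, is silenced in differentiated muscle cells.

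Libraries held 15594305 (hairpin B) to 19918954 (hairpin A) counted reads. Tead4 itself had 1256 reads in the control library, 397 with hairpin A and 170 with hairpin B, so it was lower in both libraries labelled as Tead4 shRNA. CPM below is the read count scaled to a common library size with TMM factors. Over both hairpins its log2 fold change was -2.35 (SE 0.27, edgeR adjusted p = 2.82e-06). All 10 myotube markers examined were present in every library, among them Acta1 (113091, 107281 and 101485 reads in the control, hairpin A and hairpin B libraries).

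With Tead4 shRNA the broadly expressed caveolins Cav1 and Cav2 rose, whereas Cav3 was lower in both libraries without passing the test. Of the 6 genes, 2 were called higher at an adjusted p under 0.05, against 5.34% of all genes tested. None was called lower by edgeR, against 4.48% of genes tested, although Cav3 had an unadjusted edgeR p of 0.00638. DESeq2 also called none of the 6 lower, against 374 of the 14478 genes. The median log2 fold change of the 6 genes was 0.63, beside 0.02 over all genes tested. In RNA from whole cultures, fewer cells of a type and less RNA per cell cannot be told apart.

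**Figure D1:**
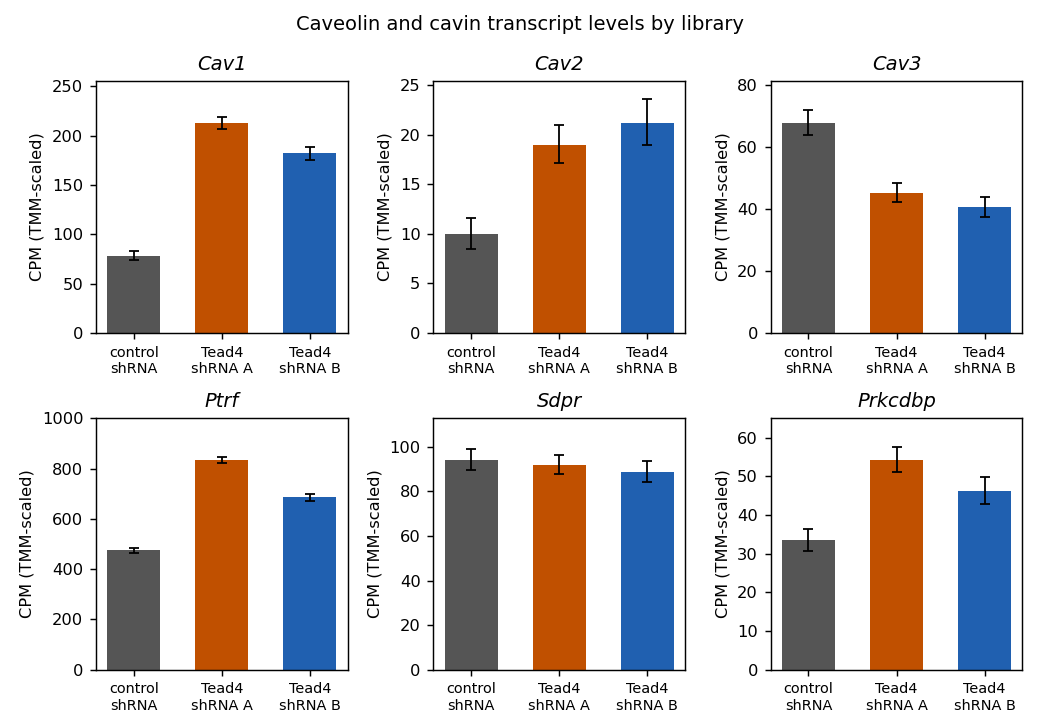
TMM-scaled read counts (CPM, vertical axes, each from 0) of the 6 genes in the control, hairpin A and hairpin B libraries. Bars are single libraries and error bars are 95% exact Poisson intervals, which cover counting error only; Cav1, Cav2, Ptrf and Prkcdbp stood higher in both hairpin libraries, Cav3 lower, and Sdpr lay between 88.9 and 94.2 CPM in all of them.

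Cav1 codes for the main structural caveolin of non-muscle cells. It was represented by 1255 reads in the control library, 4278 with hairpin A and 2865 with hairpin B, or 78.2, 213 and 182 CPM. Both hairpin libraries were high. The ratio to control was 2.72-fold with hairpin A (95% exact interval 2.55 to 2.90) and 2.33-fold with hairpin B (2.18 to 2.49). These intervals compare 2 libraries and cover counting error only. Across both hairpins the log2 fold change was 1.34 (SE 0.25, edgeR adjusted p = 9.15e-04). Cav1 was the 1 gene of the 6 that was at least 2-fold higher in both libraries with intervals that exclude no change, a criterion met by 4.33% of genes tested. The same criterion in the other direction was met by none of the 6 genes and by 2.96% of genes tested.

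Cav2, the partner that forms mixed oligomers with Cav1, was the least abundant of the 6. There were 160 reads in the control library, 382 with hairpin A and 334 with hairpin B, or 9.96, 19.0 and 21.2 CPM. Again both hairpin libraries lay above the control. The ratios were 1.91-fold (1.58 to 2.31) with hairpin A and 2.13-fold (1.76 to 2.58) with hairpin B. The log2 fold change was 1.01 (SE 0.28, edgeR adjusted p = 0.0204). DESeq2 gave almost the same size, 1.002, but did not call the gene (adjusted p = 0.115). On chromosome 6 Cav2 and Cav1 are neighbours on the same strand, 17.2 kb apart in GENCODE M21, with 0 protein-coding genes between them. The span of an antisense record named Gm15581 overlaps the spans of both in that annotation, and no row of the count table carries that name. Overlap of exons was not examined, so whether any reads of Gm15581 were counted for Cav1 or Cav2 is not known.

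Cav3, the caveolin of muscle fibres, went the other way. Its reads numbered 1086 in the control library, 910 with hairpin A and 639 with hairpin B, or 67.6, 45.2 and 40.6 CPM. Both hairpin libraries were low. Relative to control the level was 0.669-fold with hairpin A (0.612 to 0.731) and 0.600-fold with hairpin B (0.543 to 0.662). The counting intervals excluded no change, but the log2 fold change of -0.66 (SE 0.22) did not pass the edgeR test (adjusted p = 0.0600). A filter that kept only genes with a mean of at least 5 CPM brought the adjusted p to 0.0421 at a log2 fold change of -0.66. In the other 9 alternative fits Cav3 was not called.

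The promoters of the caveolins are shown because Cav1 and Cav2 rose side by side while Cav3 stood lower. Any part of these sequences in those changes was not tested. Each sequence is the 250 bases before the annotated start, 5′ to 3′ on the gene's strand, from RefSeq on GRCm38.p6; this build is later than the mm9 build named in the submitters' processing notes. Capitals mark the letters CAGCTG, a palindromic form of the E-box, which muscle regulatory factors such as myogenin bind. They were searched on both strands after the values were seen, and other forms of the E-box (CANNTG) were not searched or marked. Cav1 has another annotated start further downstream, which is not printed.
Cav1, chr6:17306085-17306334, plus strand: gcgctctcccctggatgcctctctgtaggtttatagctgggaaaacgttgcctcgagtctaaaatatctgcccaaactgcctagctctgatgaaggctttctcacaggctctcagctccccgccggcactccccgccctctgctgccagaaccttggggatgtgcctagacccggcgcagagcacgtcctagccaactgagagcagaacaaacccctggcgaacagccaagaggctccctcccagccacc
Cav2, chr6:17280935-17281184, plus strand: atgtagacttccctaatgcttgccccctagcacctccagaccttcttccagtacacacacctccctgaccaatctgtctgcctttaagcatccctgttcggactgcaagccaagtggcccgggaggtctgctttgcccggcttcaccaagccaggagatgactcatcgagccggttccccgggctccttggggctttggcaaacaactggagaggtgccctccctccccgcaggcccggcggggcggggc
Cav3, chr6:112459255-112459504, plus strand: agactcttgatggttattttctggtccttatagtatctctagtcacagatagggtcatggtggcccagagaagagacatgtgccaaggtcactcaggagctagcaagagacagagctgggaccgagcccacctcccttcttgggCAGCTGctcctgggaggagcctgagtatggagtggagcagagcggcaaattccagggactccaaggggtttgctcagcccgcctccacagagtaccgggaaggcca

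CAGCTG was found in the Cav3 window, with its first base 106 bases before the start, and in none of the windows of Cav1, Cav2, Ptrf and Sdpr. This does not mean that those windows lack an E-box: the form CAACTG stands unmarked in the printed Cav1 and Cav2 sequences. The letters CAGCTG occur in 16.3% of all 32851 promoter windows of 300 bases (250 before the start and 50 from it). By gene, they occur in 18.3% of the 27025 genes with a window. The letters GGAATG or CATTCC, the M-CAT element that TEAD factors bind, read on both strands, occur in 14.7% of the windows and 16.6% of the genes. Among the 5 genes with a window, Cav3 and Ptrf held such a match and the windows of Cav1, Cav2 and Sdpr held none. In Cav3 the match begins at base 19 of the transcript, and in Ptrf 247 bases before the start of 1 annotated window and 249 before that of the other. A match is a description of letters, and the data hold no measurement of binding. Capitals mark the match in these stretches.
Cav3, chr6:112459511-112459540, plus strand: ggtggctggcagGGAATGccaggtctcctc
Ptrf, chr11:100970847-100970867, minus strand: tcaCATTCCtctgccccagtc

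Among the cavins, Ptrf, the coat protein needed for caveola formation, was the most abundant. The control library held 7625 of its reads and the libraries of hairpins A and B 16804 and 10803, or 475, 835 and 686 CPM. Both hairpin libraries lay above the control, that with hairpin A further than that with hairpin B. Ratios to control were 1.76-fold (1.71 to 1.81) and 1.44-fold (1.40 to 1.49). The log2 fold change of 0.68 (SE 0.25) did not pass the test (edgeR adjusted p = 0.100), and none of 10 alternative fits called it. High counts make the counting interval narrow, whereas the test also uses variation between the 2 hairpin libraries, estimated mostly from values shared across genes.

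Prkcdbp codes for cavin-3, a protein kinase C delta binding protein that associates with Ptrf in the coat. Its reads numbered 539, 1093 and 729 in the control, hairpin A and hairpin B libraries, or 33.6, 54.3 and 46.3 CPM. As for Ptrf, both hairpin libraries were higher and hairpin A was the highest. The ratios were 1.62-fold (1.46 to 1.80) and 1.38-fold (1.23 to 1.54), and the log2 fold change of 0.58 (SE 0.24) was not called (edgeR adjusted p = 0.133). A transcript record, Gm45667, overlaps the span of the gene on the opposite strand in GENCODE M21, and no row of the table carries that name.

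Sdpr, cavin-2, which shapes caveolar membrane, was nearly level across the libraries. There were 1513 reads in the control library, 1851 with hairpin A and 1401 with hairpin B, or 94.2, 92.0 and 88.9 CPM. Ratios were 0.977-fold (0.912 to 1.05) and 0.944-fold (0.877 to 1.02), and both counting intervals included no change. The log2 fold change was -0.06 (SE 0.22, edgeR adjusted p = 0.923). The antisense record 9330175M20Rik overlaps Sdpr in GENCODE M21.

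**Figure D2:**
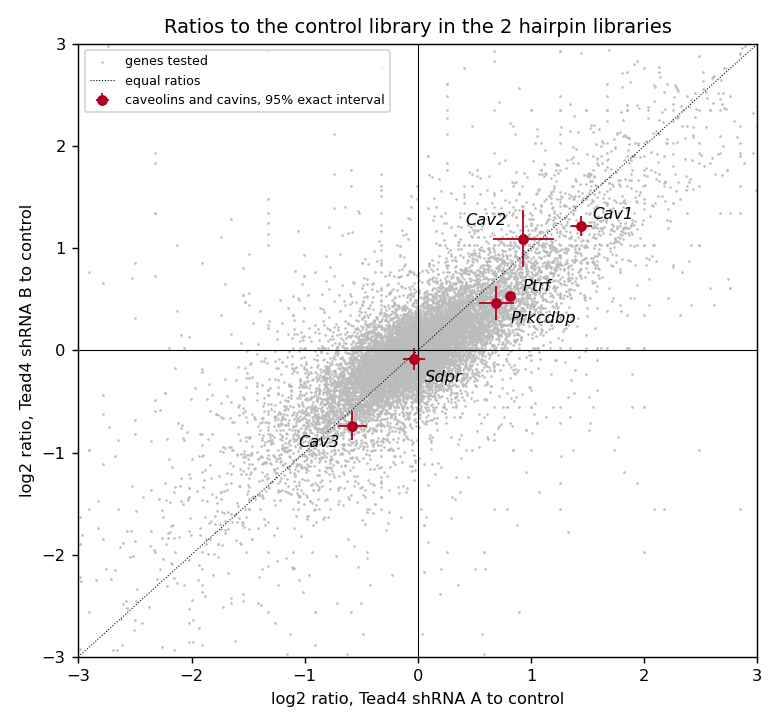
Log2 ratio to the control library with hairpin A (horizontal) and hairpin B (vertical), for genes tested that had reads in all libraries (grey) and the 6 caveolin and cavin genes (red, bars are 95% exact counting intervals); genes beyond the axes are not shown. Cav1 and Cav2 lie in the upper right, Cav3 in the lower left at -0.58 and -0.74, and Sdpr next to the origin; both ratios share the control library.

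The hairpins were also set against each other. For Cav1, Ptrf and Prkcdbp the hairpin A library was higher than the hairpin B library by 1.17-fold (95% exact interval 1.12 to 1.23), 1.22-fold (1.19 to 1.25) and 1.17-fold (1.07 to 1.29). Cav3 was 1.12-fold higher with hairpin A (1.01 to 1.24). For Cav2 the ratio was 0.896 (0.772 to 1.04) and for Sdpr 1.03 (0.965 to 1.11), and both intervals included no difference. Thus 4 of the 6 genes differed between these libraries beyond counting error, beside 50.6% of all genes tested. With 1 library for each hairpin these differences have no replicate check. Tead4 itself was higher with hairpin A, by 0.87 on the log2 scale (0.61 to 1.14).

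The make-up of the caveolin family differed between the control and hairpin libraries, a comparison within each library that needs no scaling and was chosen after the values were seen. Cav1 took 50.2% of the caveolin reads in the control library (95% exact interval 48.2 to 52.2), 76.8% with hairpin A (75.7 to 77.9) and 74.6% with hairpin B (73.2 to 76.0). Cav3 took 43.4% (41.5 to 45.4), 16.3% (15.4 to 17.3) and 16.6% (15.5 to 17.9). The hairpin libraries stood together and apart from the control for both genes. Cav2 held 6.40%, 6.86% and 8.70%. Reads of Cav1 per read of Cav3 went from 1.16 (1.06 to 1.25) in the control library to 4.70 (4.38 to 5.06) and 4.48 (4.11 to 4.89).

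Because a longer transcript yields more reads, levels of the caveolins and cavins were compared between genes per kilobase of merged exon (CPM per kb), with lengths from GENCODE M21 of 3.09 kb for Cav1, 3.33 kb for Cav2 and 1.16 kb for Cav3. On this scale Cav3 was the leading caveolin in the control library at 58.5 CPM per kb, ahead of Cav1 at 25.3 and Cav2 at 2.99. With hairpin A the levels were 68.8 for Cav1, 39.1 for Cav3 and 5.69 for Cav2, and with hairpin B 58.8, 35.0 and 6.36. The order of Cav1 and Cav3 was thus opposite in the control and hairpin libraries. The ratio of Cav1 to Cav3 per kb was 0.433, 1.76 and 1.68 in the control, hairpin A and hairpin B libraries, or 0.487, 1.98 and 1.89 with the longest transcript as the length. Cav1 stood at percentile 76.2 of length-scaled levels in the control library and at 92.2 and 90.1 with hairpins A and B, among 13873 tested genes that have a length. Cav3 went from percentile 89.7 to 85.2 and 82.9.

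**Figure D3:**
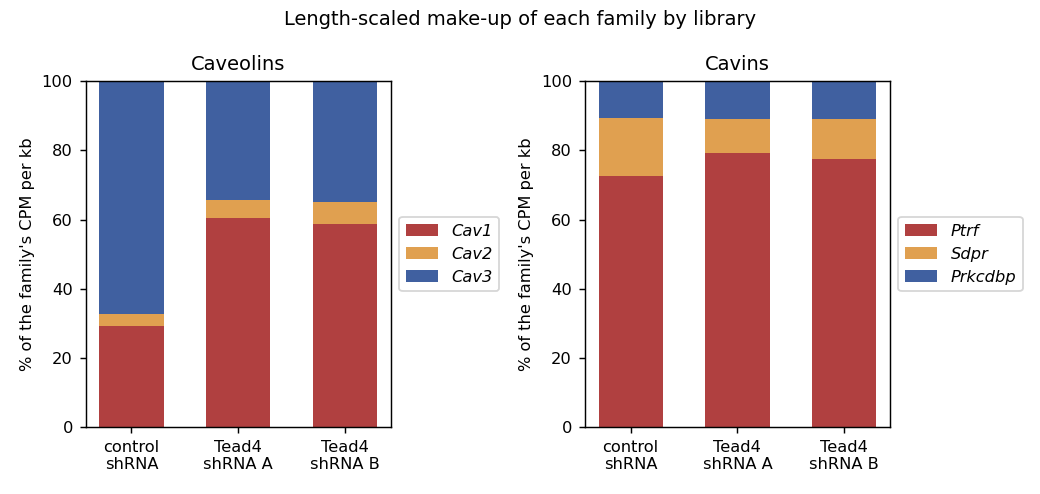
Share of each family's length-scaled level (CPM per kb, percent, vertical axes) taken by each caveolin (left) and each cavin (right) in the control, hairpin A and hairpin B libraries, 1 library per bar. Cav1 goes from 29.2% of the caveolin level in the control library to 60.6% and 58.7%, while Ptrf is the largest cavin part in all of them (72.7%, 79.2% and 77.5%).

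Among the cavins the order was the same at the top in every library. Ptrf led at 136 CPM per kb in the control library, 239 with hairpin A and 196 with hairpin B. Sdpr had 30.8, 30.1 and 29.1 CPM per kb and Prkcdbp 20.2, 32.7 and 27.8, so that Prkcdbp was below Sdpr in the control and hairpin B libraries and above it with hairpin A. Of the cavin reads, Sdpr took 15.6% in the control library (14.9 to 16.4), 9.37% with hairpin A (8.97 to 9.79) and 10.8% with hairpin B (10.3 to 11.4). The share of Prkcdbp was 5.57%, 5.53% and 5.64%, with overlapping intervals. Reads of Ptrf per read of Prkcdbp were likewise close, at 14.1 (13.0 to 15.5), 15.4 (14.5 to 16.4) and 14.8 (13.7 to 16.0). Summed over the 3 genes, cavins had 603, 982 and 821 CPM, and the 3 caveolins 156, 277 and 244 CPM.

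A list of 11 accessory genes held transcripts of other caveolar proteins, of relatives of these and of the flotillins, and all 11 passed the filter. Ehd3 was the 1 gene called higher by edgeR, beside 5.34% of all genes tested, and 0 were called lower, beside 4.48%. DESeq2 also called 1 higher and 0 lower, beside 448 and 374 of the 14478 genes. At an unadjusted edgeR p under 0.05 there were 3 higher and 1 lower, beside 3143 of the 14478 genes in either direction. The median log2 fold change of the list was 0.14, beside 0.02 over all genes tested. Murc (cavin-4), the cavin of striated muscle, was not called at 0.25 (SE 0.24): it had 5895, 8608 and 7058 reads in the control, hairpin A and hairpin B libraries, a little above the control with both hairpins, while Cav3 was below it.

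EHD proteins are ATPases that bind membrane, and Ehd2 sits at the caveolar neck. Ehd3, a relative, was the gene called: 344, 1213 and 612 reads, and a log2 fold change of 1.21 (SE 0.27, edgeR adjusted p = 0.00542). Both hairpin libraries were higher, and hairpin A was the highest. Ehd2 had 2829, 6662 and 3832 reads and was not called at 0.71 (SE 0.25, edgeR adjusted p = 0.0869), though it was called with no filter on low counts. Ehd1 (-0.64, SE 0.22) and Ehd4 (0.14, SE 0.25) were not called.

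Pacsins bend membrane through their F-BAR domain, and Pacsin3 is the muscle form that caveolae of muscle contain. None of Pacsin1 (0.56, SE 0.27), Pacsin2 (-0.26, SE 0.24) and Pacsin3 (-0.16, SE 0.22) passed the test. Flotillins are scaffold proteins of another kind of membrane domain. Flot1 had a log2 fold change of -0.44 (SE 0.22), Flot2 of -0.17 (SE 0.22), and the receptor Ror1, reported as a scaffold that links caveolin and cavin, of 0.46 (SE 0.36), and these were not called either.

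**Figure D4:**
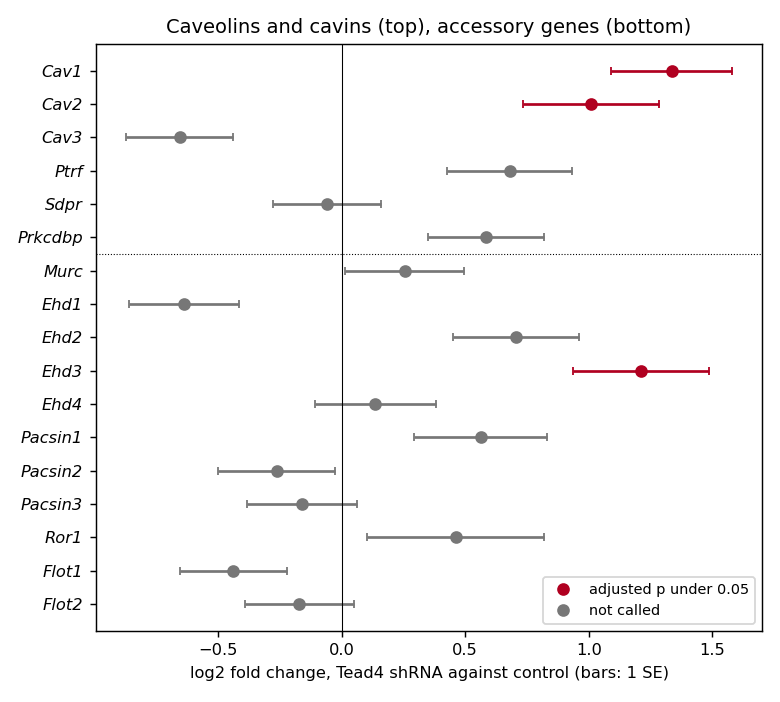
Log2 fold change of Tead4 shRNA against control (horizontal axis, edgeR, bars are 1 SE) for the caveolins and cavins (above the dotted line) and 11 accessory genes of caveolae (below it). Red points passed an adjusted p of 0.05: Cav1, Cav2 and Ehd3, all to the right of 0.

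Genes of membrane repair and T-tubules, processes in which Cav3 takes part, were read from a list of 15, all tested. By edgeR 2 rose and 2 fell, beside 5.34% and 4.48% of all genes. By DESeq2 3 were called higher and 0 lower, beside 448 and 374 of the 14478 genes. At an unadjusted edgeR p under 0.05 there were 3 in each direction, beside 3143 of the 14478 genes in either direction. The median on the log2 scale was -0.04. The calcium-dependent membrane binders Anxa2 (1.15, SE 0.26, edgeR adjusted p = 0.00502) and Anxa5 (0.99, SE 0.25) rose. Jph1, which ties T-tubule to reticulum, fell by 0.80 (SE 0.22), and the lipid phosphatase Mtm1 fell by 0.86 (SE 0.27). DESeq2 ended the call of Jph1, and DESeq2 and each of 4 other scalings ended that of Mtm1. Of 15 receptors and enzymes reported to bind caveolins, 2 fell and 0 rose by edgeR, beside 4.48% and 5.34% of all genes. DESeq2 also called 2 lower and 0 higher, beside 374 and 448 of the 14478 genes. The median log2 fold change of these 15 was -0.03. The same 2 and 0 had an unadjusted edgeR p under 0.05, a smaller part of the list than the 3143 of all 14478 genes. Those were the kinase Fyn (-1.01, SE 0.24) and the fatty acid transporter Cd36 (-0.999, SE 0.24).

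Other measures moved in the same libraries. Mitochondrial genes took 1.59%, 2.09% and 2.47% of the reads in the control, hairpin A and hairpin B libraries, and their part in the caveolin and cavin values was not tested. Of 10 myotube markers 5 fell, beside 4.48% of all genes tested by edgeR, and the median over all 10 was -0.81 on the log2 scale. Among those that fell were Myh3 (-1.63, SE 0.24), Myog (-1.44, SE 0.24), Tnnt3 (-1.15, SE 0.24) and Ckm (-1.06, SE 0.24). The summed level of all 10 was 26405 CPM in the control library, 15466 with hairpin A and 19384 with hairpin B. Of 11 markers of undifferentiated or dividing cells with a row in the table, 8 rose and 1, Myf5 (-1.35), fell, beside 5.34% and 4.48% of all genes tested by edgeR. The median of the 11 was 1.18, with summed levels of 166, 320 and 341 CPM. DESeq2 called 5 higher and 1 lower, beside 448 and 374 of the 14478 genes. Mki67 (2.59, SE 0.28), Top2a (1.91, SE 0.25), Spry1 (1.18, SE 0.26) and Hes1 (0.80, SE 0.25) were among those that rose; 5 alternative fits did not call Hes1. The part of these markers in the values of Cav1, Cav2 and Cav3 was not tested.

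Caveolae are also abundant in smooth muscle, endothelium and fat, so markers of those cells were read as well. Their calls stand beside 5.34% higher and 4.48% lower among all genes tested by edgeR. Of 5 smooth muscle markers tested 4 rose, with a median of 2.07: Acta2 (1.09, SE 0.27), Tagln (1.58, SE 0.26), Actg2 (2.50, SE 0.31) and Lmod1 (2.07, SE 0.37). Their summed level over 6 genes was 1618, 3988 and 3097 CPM, and the defining myosin Myh11 had 3, 5 and 0 reads; the newer quasi-likelihood method did not call Acta2. All 4 endothelial markers in the table stayed under 1 CPM in every library (summed 0.934, 1.19 and 1.40 CPM), with Pecam1 at 0, 0 and 3 reads. Of the adipocyte markers, Fabp4 had 1, 1 and 0 reads, Cidec 0, 3 and 0, and 1 of 2 tested, the transcription factor Cebpa, rose (1.17, SE 0.27). The other, Pparg, was not called at -0.30 (SE 0.36), with 7.78, 5.27 and 7.42 CPM. The list summed to 19.1, 33.7 and 29.8 CPM, and Cebpa alone had 11.2, 28.2 and 22.3. Among 5 fibroblast markers Dcn fell (-0.91, SE 0.23). Their sum was 2062, 3147 and 1911 CPM, most of it from Col3a1, which was not called at 0.50 (SE 0.29), with 1582, 2838 and 1646 CPM. The part of smooth muscle and fibroblast genes in the caveolin values was not tested.

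Genes with the most similar pair of ratios were sought among 9538 genes with a mean of at least 5 CPM, by Euclidean distance in the log2 ratios of the 2 hairpin libraries to the control library. Among the genes nearest to Cav1 were F2r (distance 0.05) and Snx29 (0.06). Nearest to Cav2 were Hnrnph1 (0.04), Olfm1 (0.05) and Ahr (0.06). For Cav3 they were Epb4.1, Fbxo32 and Rbm38 (0.02, 0.02 and 0.03). Within a distance of 0.2 there were 39 genes around Cav1, 59 around Cav2 and 218 around Cav3, and 1616 around Sdpr. For Ptrf the nearest were Mink1, Slc35b4 and Efcab7, for Prkcdbp Rfwd3, Zfp462 and Rpa1, and for Sdpr Surf2, Sfrs6 and Ppfia1. Such a list rests on 2 ratios per gene that share the control library.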

How the data were processed

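RNA was measured in 3 libraries, 1 with a control shRNA and 2 with different Tead4 shRNAs, which served as the 2 replicates of the knockdown. The deposited table gives raw counts of reads per Ensembl gene, per the file headers, and a normalized value that was treated as a score: each equalled the raw count times 1 factor per library (1.00, 0.801 and 1.02), rounded. The mm9 build, DESeq, Cufflinks 0.8.2 and TopHat 1.0.12 are listed, without a role, in the submitters' processing notes; the counting program and the annotation release are not given in the sources used here.

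Raw counts of all genes were tested with edgeR 4.0.16 (R 4.3.3): filterByExpr, TMM factors of 0.979, 1.01 and 1.01, and the quasi-likelihood F test (legacy method) with Benjamini-Hochberg adjustment over 14478 genes at a threshold of 0.05. The fit leaves 1 residual degree of freedom, and the single control library is assumed to vary like the others. Each gene's variance was moderated by values shared across genes, with 20.9 prior degrees of freedom. The p-values therefore reflect only how far the 2 hairpin libraries spread, pooled largely over genes, since the single control library adds no spread. That spread may be technical, and it also holds any difference between the 2 hairpins. SE is the absolute log2 fold change over the square root of F. Ratios of libraries and shares of reads carry 95% exact (Clopper-Pearson) intervals, which cover counting error only, since reads amplified without molecular identifiers are not independent molecules. Alternatives used other filters, scalings, DESeq2 1.42.0, limma-voom (limma 3.58.1) and other edgeR tests. The edgeR testing code was run on simulated counts with the same changes in both hairpin libraries. That run cannot show how the test behaves where hairpins differ.

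Lengths and overlaps came from GENCODE M21, matched by identifier for 18701 of 20162 genes, and promoters from RefSeq (GRCm38.p6), which held windows for 5 of the 6 genes; Prkcdbp was not matched. From each list the text names up to 4 called genes of highest mean CPM, or 2 where none was called, and all accessory genes that passed the filter; for each caveolin and cavin it names the 3 nearest genes by ratio, without predicted genes; 1 of them is not reported here. Genes named outside this rule (Acta1, Col3a1, Myf5, Myh11, Pecam1, Pparg, Fabp4, Cidec) were chosen after their values were seen. The genes and lists were chosen with earlier results of these data known.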

Additional observations from a re-analysis of the deposited data

How the results depend on the processing

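Over 10 alternative filters, scalings and tests, the log2 fold changes of all 6 genes kept their sign, from 1.33 to 1.38 for Cav1, 1.001 to 1.06 for Cav2, -0.67 to -0.61 for Cav3, 0.67 to 0.73 for Ptrf, 0.58 to 0.63 for Prkcdbp and -0.07 to -0.01 for Sdpr. Cav2 was not called by DESeq2 (1.002, adjusted p = 0.115), and Cav3 was called with a mean of at least 5 CPM (-0.66, adjusted p = 0.0421), against a range of 0.0421 to 0.885 over its alternatives. A likelihood-ratio test whose dispersion treated all 3 libraries as a single group called neither Cav1 (1.34, adjusted p = 0.885) nor Cav2 (1.01, adjusted p = 0.885); it called 0 genes higher and 0 lower of all genes (540 at an unadjusted p under 0.05), 0 caveolins and cavins, and also not Tead4. DESeq2 called 448 genes higher and 374 lower in place of 773 and 649, and 1 caveolin or cavin higher in place of 2. The filter at 5 CPM called 1 of them lower in place of 0. The cause of these changes was not tested. Leaving out either hairpin library gives the ratio of the other alone, with no test. Another length moved the ratio of Cav1 to Cav3 per kb beyond its counting interval in all 3 libraries and did not change which was higher. No scaling moved the median of all genes by over 0.05 on the log2 scale. No paired analysis was possible because the labels give no replicate numbers and the control group has 1 library. Cav2 has the fewest reads, and its interval is the widest of the 6 genes.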
